A study of Rattus norvegicus with 6 samples.

Results

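Integrins and laminins are the receptors and the ligands with which epithelial cells hold on to their basement membrane, and their genes were read here in NRK-52E cells kept with streptozotocin (STZ). The members were chosen by gene symbol as every row of the deposited count table named as an integrin α chain, an integrin β chain or a laminin α, β or γ chain. There were 34 such genes among 18930 rows, namely 24 integrin genes (16 α and 8 β) and 10 laminin genes. NRK-52E, an established rat cell line of kidney epithelial origin, is labelled as wild type. The STZ group held 3 samples of cells exposed to 10 mM of STZ, a nitrosourea joined to glucosamine that alkylates DNA, for 24 h. The Control group held 3 samples of the same line given vehicle. The study asked which genes differ between these conditions. Both groups come from 1 cell line, and the sources do not say whether the 3 samples of a group were separate cultures, so p-values measure only the spread between these samples, which may be technical.

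Total counts lay between 10430924 and 15191349 reads per sample. Levels are given as CPM, reads of a gene per 1000000 reads of its library, with library sizes scaled by edgeR's TMM factors of 0.988 to 1.02. CPM is not divided by transcript length, so a level is compared between samples and not between genes. Of the markers checked, the epithelial keratin gene Krt8 stood at 1149 ± 40.7 CPM in Control and 1604 ± 8.05 CPM in STZ (SD, n = 3 each) and rose (log2 fold change 0.48, edgeR's adjusted p = 1.8e-15). The epithelial cadherin gene Cdh1 was low and fell, from 2.58 ± 0.524 to 1.64 ± 0.553 CPM (log2 fold change -0.69, edgeR's adjusted p = 0.030), with overlapping groups. Of the 8 epithelial markers listed, Krt18, Cdh16 and Pax8 had under 10 reads in every sample, and Krt19, Epcam and Pax2 had no row under their symbols. For proximal tubule, 5 of 7 markers, Lrp2, Slc34a1, Slc5a2, Slc2a2 and Havcr1, also had under 10 reads in every sample, and Cubn had at most 10. Aqp1, a water channel gene and the only marker of that list tested, fell from 13.1 ± 3.68 to 5.43 ± 0.663 CPM (log2 fold change -1.25, edgeR's adjusted p = 9.4e-09). The part of these marker differences in the results on integrins and laminins was not tested. The 4 endothelial markers had under 10 reads in every sample, and the 5 fibroblast markers in the table summed to 47.2 to 52.4 CPM in Control and 36.8 to 43.7 CPM in STZ. Of these 5, Col1a1 fell from 30.3 ± 1.85 to 25.4 ± 4.24 CPM (edgeR's adjusted p = 0.0092), with overlapping groups. Pdgfrb fell from 19.6 ± 1.54 to 15.6 ± 0.867 CPM (edgeR's adjusted p = 0.0029). Col1a2, Pdgfra and Lum had under 10 reads in every sample. In bulk RNA, fewer cells of a kind and less RNA per cell cannot be told apart.

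A laminin is a cross-shaped trimer of an α, a β and a γ chain, and each chain has its own gene. The Lama5 chain joins Lamb1 or Lamb2 and Lamc1 in the basement membrane under most adult epithelia, including kidney tubules, while Lama3 and Lamb3 belong to a laminin best known from skin and from epithelium that migrates or closes a wound. An integrin is a pair of an α and a β chain that spans the plasma membrane, and the α chain largely sets the ligand. Itga3, Itga6 and Itga7 serve laminin receptors, Itga1, Itga2, Itga10 and Itga11 collagen receptors, and Itga5, Itga8, Itgav and Itga2b receptors of the RGD peptide found in fibronectin and osteopontin. Itgb4 pairs with Itga6 alone, and the pair anchors keratin filaments at hemidesmosomes.

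The laminin genes Lama3 and Lamb3 rose together in STZ-treated cells, and the laminin-binding integrin genes Itga3, Itga6, Itga7 and Itgb4 rose with them. Integrin genes outside the laminin receptors rose too, Itgax by a log2 fold change of 0.83, Itgav 0.38, Itga10 0.32 and Itga5 0.16. Lama5, Lamb1, Lamb2 and Lamc1 moved little, and Itgb1, the β chain shared by most of the integrins listed above, was not called. The collagen receptor gene Itga1 fell. Of the 34 members, 21 passed edgeR's filter on low counts and were tested, each with at least 18 reads in every sample. At an adjusted p under 0.05 from edgeR's quasi-likelihood test, 14 of the 21 rose, 2 fell and 5 were not called. Over all 11870 genes tested, 25.9% rose, 25.1% fell and 50.9% were called in either direction. A called difference was therefore common in these cells, and 76.2% of the tested members carried one. When the log2 fold change also had to exceed 1 in size, 3 members passed, all of them higher in STZ and Lama3 and Itgb4 among them, against 3.37% of all genes tested. The median log2 fold change was 0.32 for the 21 tested members and -0.01 for all genes tested. Without Control replicate 1 the median of the members was 0.15 and without STZ replicate 2 it was 0.20, where 23 and 22 members passed the filter.

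**Figure D1:**
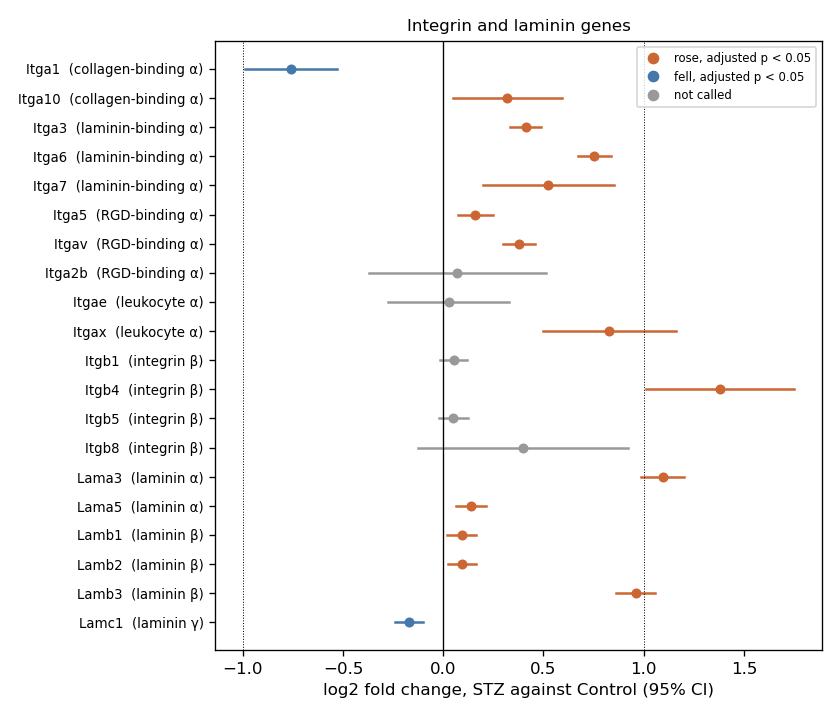
Log2 fold change (x axis, STZ against Control) of 20 integrin and laminin genes tested, grouped by role, with points for edgeR's estimate, bars for its 95% confidence interval and dotted lines at a log2 fold change of 1 in either direction. Itgb4 (1.38), Lama3 (1.09) and Lamb3 (0.96) stand farthest to the right and Itga1 (-0.76) farthest to the left.

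Among the laminin α chains, Lama3 rose and Lama5 rose slightly. Lama3 had 44.3, 47.9 and 49.1 CPM in Control replicates 1, 2 and 3, and 101, 100.1 and 101 CPM in STZ replicates 1, 2 and 3. The groups were far apart, and the STZ samples were almost level with each other. The log2 fold change was 1.09 (standard error, SE, 0.05; 95% confidence interval 0.99 to 1.20, adjusted p = 2.7e-21 from edgeR), a 2.14-fold rise. Lama5 had 1073, 1028 and 1077 CPM in Control against 1200, 1203 and 1093 CPM in STZ. Its groups did not overlap either, as in 56.3% of all genes tested, but STZ replicate 3 lay close to the Control samples. The log2 fold change of Lama5 was 0.14 (SE 0.04, adjusted p = 0.0019).

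The promoter of Lama3 is shown because this gene led the α chains, with those of Lamb3, its partner chain, of Lama5, the other α chain expressed, and of Itga1, the integrin gene that fell. Each is the 300 bases from 250 before to 50 after the annotated start, 5′ to 3′ on the gene's strand, from RefSeq's rat assembly GRCr8, whereas the counts were made on the older build Rnor6. They lie at chr18:3952517-3952816 (plus strand, Lama3), chr13:107362303-107362602 (plus strand, Lamb3), chr3:187695925-187696224 (minus strand, Lama5) and chr2:48545234-48545533 (minus strand, Itga1). The starts used for Lama3 and Itga1 lie inside the annotated span of the gene and not at its outer end. Capitals mark AP-1 motifs (TGANTCA) and cyclic AMP response elements (TGACGTCA), searched on both strands, and no base here belongs to both.
Lama3: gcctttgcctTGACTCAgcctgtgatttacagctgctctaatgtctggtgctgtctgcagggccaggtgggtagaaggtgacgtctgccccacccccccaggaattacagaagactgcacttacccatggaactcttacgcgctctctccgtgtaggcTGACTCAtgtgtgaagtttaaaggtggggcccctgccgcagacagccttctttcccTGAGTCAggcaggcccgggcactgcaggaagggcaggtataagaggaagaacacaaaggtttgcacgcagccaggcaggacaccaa
Lamb3: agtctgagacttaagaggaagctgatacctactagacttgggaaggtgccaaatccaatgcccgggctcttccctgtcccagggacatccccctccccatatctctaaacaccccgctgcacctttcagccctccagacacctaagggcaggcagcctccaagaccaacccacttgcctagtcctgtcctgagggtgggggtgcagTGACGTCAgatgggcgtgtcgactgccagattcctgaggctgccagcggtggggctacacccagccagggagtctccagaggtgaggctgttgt
Lama5: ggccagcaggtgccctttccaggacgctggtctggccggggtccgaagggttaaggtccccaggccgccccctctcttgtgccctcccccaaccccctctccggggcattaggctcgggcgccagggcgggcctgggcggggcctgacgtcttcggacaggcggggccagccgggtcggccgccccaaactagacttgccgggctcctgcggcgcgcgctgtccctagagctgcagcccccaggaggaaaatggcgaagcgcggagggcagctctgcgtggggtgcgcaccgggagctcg
Itga1: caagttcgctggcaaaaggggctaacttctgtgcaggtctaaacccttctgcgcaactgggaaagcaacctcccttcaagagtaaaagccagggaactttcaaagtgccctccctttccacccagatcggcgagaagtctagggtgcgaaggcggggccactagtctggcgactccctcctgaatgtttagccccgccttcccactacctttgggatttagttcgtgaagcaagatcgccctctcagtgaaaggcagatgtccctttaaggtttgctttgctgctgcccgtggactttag
Lama3 held 3 AP-1 motifs, whose first bases lie 240, 92 and 36 bases before the start. At least 1 such motif stood in 7.33% of the 33469 rat promoters of this length, and 3 or more in 5 of them. Lamb3 held 1 cyclic AMP response element, 44 bases before the start, a motif found in 1.83% of the promoters, and no AP-1 motif. Neither motif stood in the windows of Lama5 and Itga1. Over the 25 members with a promoter in the table, 2 held an AP-1 motif (Lama3 and Itgax), 1 the cyclic AMP response element, 6 the TEAD motif GGAATG (14.2% of all promoters) and 0 the p53 half-site (7.98% of all promoters). These matches describe letters in a window, and no binding was measured.

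Among the β chains, Lamb3 rose and the other chains stood close to Control. Lamb3 had 70.9, 67.1 and 64.6 CPM in Control and 133, 134 and 127 CPM in STZ, a log2 fold change of 0.96 (SE 0.05, adjusted p = 1.5e-20), or 1.95-fold. The STZ samples were all about as far above the Control samples, and the value lay just under the fold-change threshold of 1. Lamb1 had 513, 495 and 510.0 CPM in Control against 556, 538 and 525 CPM in STZ. Lamb2 had 574, 569 and 552 CPM in Control against 604, 616 and 589.8 CPM in STZ. In both genes the STZ samples lay above the Control samples by little. Their log2 fold changes were 0.09 each (SE 0.04 and 0.04, adjusted p = 0.029 and 0.024). These calls were lost when libraries were scaled by total size only (adjusted p = 0.17 and 0.15) or by the upper quartile (0.088 and 0.079), and with some samples left out: Control replicate 2 for Lamb1 (0.12), Control replicate 3 for Lamb2 (0.080), and STZ replicate 1 (0.16 and 0.060) or STZ replicate 2 (0.058 and 0.11) for both.

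Lamc1, the γ chain found in most basement membranes, had 1318, 1316 and 1355 CPM in Control against 1199, 1182 and 1164 CPM in STZ. All STZ samples lay below all Control samples, as in 27.7% of all genes tested, and the log2 fold change was -0.17 (SE 0.03, adjusted p = 5.1e-05).

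**Figure D2:**
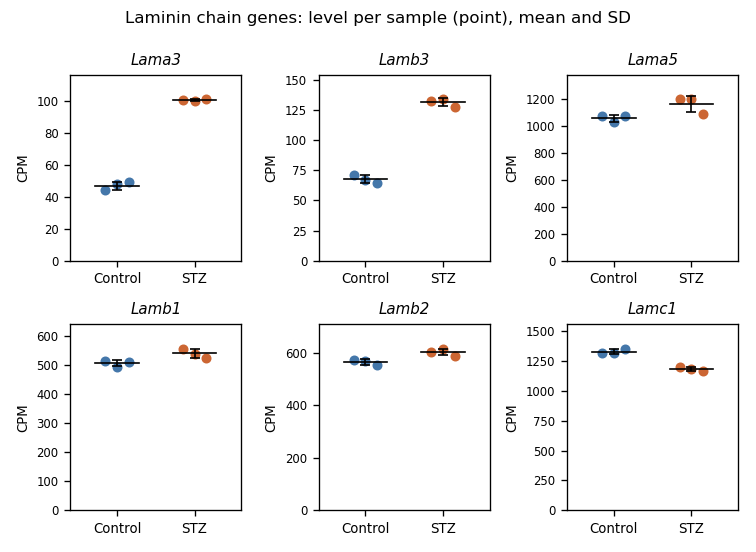
Level of 6 laminin chain genes in each sample (y axes, CPM from 0), with points for the 3 Control and 3 STZ samples, a line for the mean and bars for the SD. Lama3 and Lamb3 stand at about 101 and 131 CPM in STZ against 47.1 and 67.5 CPM in Control, while Lamc1 is lower in STZ.

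The laminin genes together took 3528 to 3614 CPM in Control and 3624 to 3816 CPM in STZ, so their sum changed far less than Lama3 or Lamb3. Within the α and β chain classes the reads were divided differently in the groups. Lama3 took 3.96%, 4.45% and 4.36% of the laminin α reads in Control and 7.75%, 7.68% and 8.48% in STZ. Its share was higher in each STZ sample than in any Control sample, while the share of Lama5 was 95.7% ± 0.266 in Control and 92.0% ± 0.436 in STZ (SD, n = 3 each). Lamb3 took 5.93% ± 0.192 of the laminin β reads in Control and 10.3% ± 0.0824 in STZ. A share of reads is not a share of protein chains, since transcript lengths were not used. With 3 samples against 3, an exact two-sided permutation test of a share cannot go below p = 0.1, so these shares are given without a test.

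**Figure D3:**
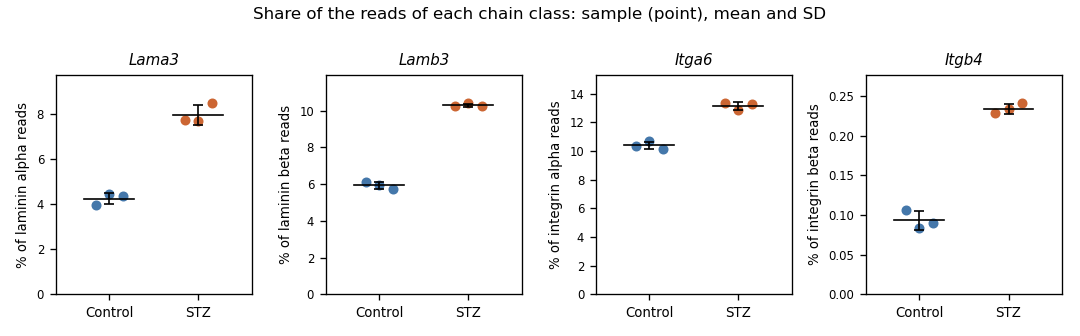
Share of reads (y axes, percent from 0) that Lama3 and Lamb3 took within their laminin chain class, and Itga6 and Itgb4 within the integrin α and β chains, in 3 Control and 3 STZ samples, with lines for the mean and bars for the SD. In each panel all STZ points lie above all Control points, for Lamb3 at 10.25% to 10.40% against 5.74% to 6.12%.

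The 3 integrin α genes of laminin receptors all rose, beside 25.9% of all genes tested, though the groups of Itga7 overlapped. Itga6, which pairs with Itgb1 or Itgb4, had 175, 184 and 192 CPM in Control and 312, 306 and 312 CPM in STZ. The groups did not come near each other, and the log2 fold change was 0.75 (SE 0.04, adjusted p = 9.1e-20), or 1.69-fold. Itga3, whose pair with Itgb1 is the main laminin receptor of many epithelia, had 914, 927 and 1036 CPM in Control and 1271, 1303 and 1255 CPM in STZ. Control replicate 3 was the highest of its group and still below every STZ sample, and the log2 fold change was 0.41 (SE 0.04, adjusted p = 4.0e-12). Itga7, known best from muscle, had 5.37, 6.55 and 5.22 CPM in Control and 9.16, 5.65 and 9.41 CPM in STZ. STZ replicate 2 lay inside the Control range, so the groups overlapped, and the log2 fold change was 0.52 (SE 0.16, adjusted p = 0.0062). Without STZ replicate 3 it was 0.40 and no longer called (adjusted p = 0.084). The annotated span of Itga7 overlaps Mettl7b, which was itself higher in STZ by a log2 fold change of 0.95 at 1.47 CPM or less on average (adjusted p = 0.028).

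Itgb4 had few reads but a clear difference, with 30, 25 and 32 reads in Control and 89, 76 and 101 in STZ. This made 2.83, 2.27 and 2.50 CPM against 6.47, 6.60 and 6.74 CPM. Each STZ sample stood at more than any Control sample, and the log2 fold change was 1.38 (SE 0.18, 95% confidence interval 1.01 to 1.75, adjusted p = 2.6e-08), or 2.61-fold. Itgb1 had 2159, 2222 and 2244 CPM in Control and 2307, 2286 and 2274 CPM in STZ. All its STZ samples lay above all Control samples, as in 28.6% of all genes tested, but the log2 fold change of 0.05 (95% confidence interval -0.02 to 0.12) was not called (adjusted p = 0.20). The interval leaves out a rise as large as that of Itga3 or Itga6. The annotated span of Itgb1 overlaps LOC134483511 on the same strand, which was not among the genes tested. Within the integrin α reads, Itga6 took 10.4% ± 0.257 in Control and 13.1% ± 0.263 in STZ (SD, n = 3 each), and Itga3 took 54.2% ± 0.495 and 54.0% ± 0.726. Within the integrin β reads, Itgb4 took 0.0932% ± 0.0120 in Control and 0.234% ± 0.00625 in STZ, and Itgb1 81.2% ± 0.0746 and 81.0% ± 0.354, with overlapping groups.

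**Figure D4:**
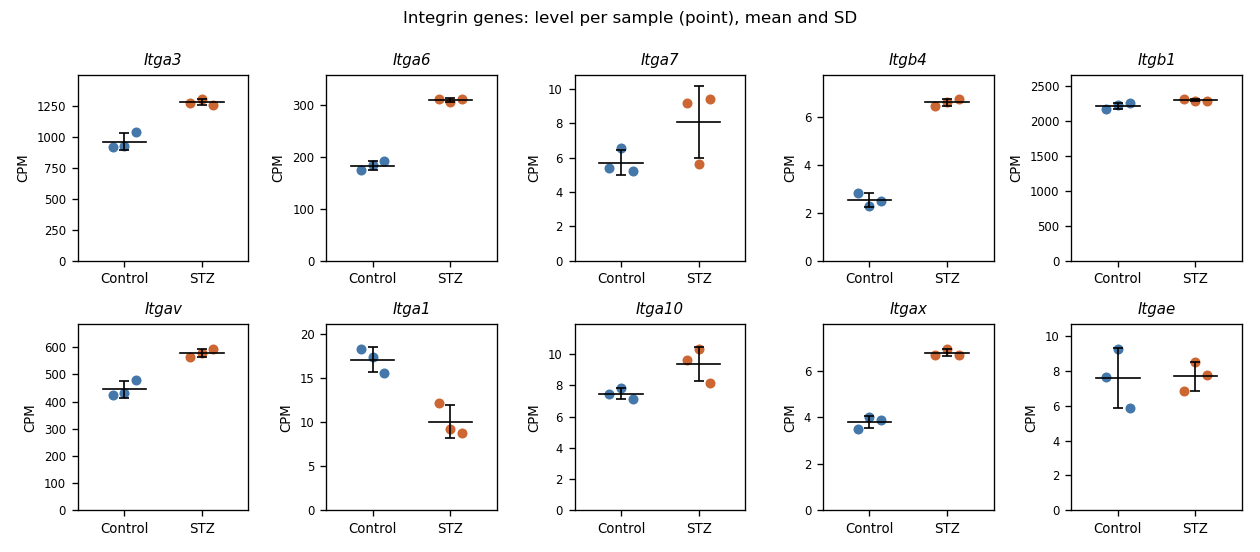
Level of 10 integrin genes in each sample (y axes, CPM from 0), with points for the 3 Control and 3 STZ samples, a line for the mean and bars for the SD. Itga6, Itgb4 and Itgax lie well above Control in all STZ samples, Itga1 below, and Itgae overlaps at 7.59 CPM in Control and 7.70 CPM in STZ on average.

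The collagen receptor genes did not move as a group. Itga1, which pairs with Itgb1 and binds collagen IV of basement membranes, had 18.3, 17.4 and 15.5 CPM in Control and 12.1, 9.21 and 8.74 CPM in STZ. STZ replicate 1 was the highest of its group and below every Control sample. The log2 fold change was -0.76 (SE 0.11, adjusted p = 3.9e-07), which made Control 1.69-fold higher. The gene Pelo lies within the annotated span of Itga1 on the same strand and had a log2 fold change of 0.16 (adjusted p = 0.0077), in the other direction. Itga10, known from cartilage, had 7.45, 7.82 and 7.10 CPM in Control and 9.59, 10.3 and 8.14 CPM in STZ. The groups did not overlap, though STZ replicate 3 came near Control, and the log2 fold change was 0.32 (SE 0.13, adjusted p = 0.043). That call was the least stable of the members, being kept under 5 of 14 alternatives. It was lost with DESeq2 (adjusted p = 0.12), with limma-voom (0.057), under scaling by library size only (0.070) or the upper quartile (0.058), and without Control replicate 1 (0.074), 2 (0.057) or 3 (0.12) or STZ replicate 1 (0.11) or 2 (0.17). Itga2 and Itga11 had at most 5 reads in a sample and were not tested.

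Of the RGD receptor genes, Itgav and Itga5 rose and Itga2b was not called. Itgav, the α chain of the vitronectin and osteopontin receptors, had 425, 431 and 481 CPM in Control and 563, 578 and 595 CPM in STZ. The lowest STZ sample exceeded the highest Control sample, and the log2 fold change was 0.38 (SE 0.04, adjusted p = 1.2e-10). Itga5, the fibronectin receptor chain, rose less, from 135 ± 6.94 to 151 ± 2.11 CPM (SD, n = 3 each), a log2 fold change of 0.16 (adjusted p = 0.0022). Its share of the integrin α reads was 7.61% ± 0.0793 in Control and 6.38% ± 0.0413 in STZ, while Itga3, Itga6 and Itgav rose by more. Itga2b, the platelet chain, had 26 to 45 reads per sample and a log2 fold change of 0.07 (95% confidence interval -0.37 to 0.51, adjusted p = 0.81).

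Of the leukocyte integrin α genes, Itgax and Itgae were present at low counts. Itgal and Itgad had at most 1 and 2 reads in a sample. Itgax, whose protein is CD11c, had 37, 44 and 50 reads in Control and 92, 80 and 100 in STZ, that is 3.80 ± 0.272 CPM against 6.77 ± 0.156 CPM (SD, n = 3 each). The STZ samples agreed closely and lay above Control, with a log2 fold change of 0.83 (SE 0.16, adjusted p = 4.4e-05). Itgb2, the β chain that Itgax needs to reach the surface, had 0 reads in 5 samples and 2 reads in STZ replicate 3. A count of 0 allows up to 0.197 to 0.288 CPM in these libraries, for counting error only. The leukocyte markers Ptprc, Cd3e, Csf1r and Cd53 each had under 10 reads in every sample. Cd68, the only leukocyte marker tested, had 1.44 ± 0.696 CPM in Control and 1.91 ± 0.171 CPM in STZ. It was not called (log2 fold change 0.40, edgeR's adjusted p = 0.28), and its groups overlapped. With Cd68, the 5 leukocyte markers in the table summed to 1.45 to 2.26 CPM in Control and 2.26 to 2.83 CPM in STZ. Itgae had 7.64, 9.28 and 5.85 CPM in Control and 6.83, 8.51 and 7.74 CPM in STZ. The groups overlapped fully, and its log2 fold change was 0.03 (95% confidence interval -0.27 to 0.33, adjusted p = 0.89). The annotated span of Itgae overlaps Haspin on the opposite strand, and whether the counting used strand is not stated.

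Of the remaining integrin β chains, Itgb5, a partner of Itgav, had 508 ± 11.9 CPM in Control and 526 ± 10.8 CPM in STZ (SD, n = 3 each). Its log2 fold change of 0.05 (95% confidence interval -0.02 to 0.12, adjusted p = 0.24) was not called although Itgav rose. Itgb8, another partner of Itgav, had 18 to 39 reads per sample and a log2 fold change of 0.40 (95% confidence interval -0.13 to 0.92, adjusted p = 0.21), so a rise of the size seen for Itgav was not detectable at this depth.

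The 13 members left out by the filter had at most 16 reads in any sample. They were Itga2, Itga8, Itga9, Itga11, Itgad, Itgal, Itgb2, Itgb3, Itgb6, Itgb7, Lama2, Lama4 and Lamc3. Tested without a filter by edgeR's quasi-likelihood test, 0 of the 13 were called and 0 had an unadjusted p under 0.05. Itgb3 and Itgb6, the other partners of Itgav in epithelium and bone, had at most 4 and 2 reads. At so few reads a difference can be missed, so the lack of a call does not show that these genes were unchanged.

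The other genes of cell adhesion were read from lists by role, and 43 of the 50 present in the table were tested. Of these, 22 rose, 7 fell and 14 were not called, with a median log2 fold change of 0.11 against -0.01 for all genes tested, of which 25.9% rose and 25.1% fell. With both thresholds, 1 passed, Fras1. Among 7 tested basement membrane genes, 4 rose and 2 fell, where 50.9% of all genes tested were called in either direction. Npnt, which encodes nephronectin, a ligand of the receptor that contains Itga8, had 101, 96.3 and 84.6 CPM in Control and 140.1, 143 and 138 CPM in STZ. All STZ samples were higher, with a log2 fold change of 0.58 (SE 0.05, adjusted p = 3.2e-13), while Itga8 itself had at most 5 reads in a sample. Fras1, a basement membrane protein of the developing kidney and skin, had 43.3, 39.2 and 33.9 CPM in Control and 21.7, 19.4 and 16.8 CPM in STZ. It fell by 1.01 on the log2 scale (SE 0.09, adjusted p = 3.7e-13).

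Of 8 other ligand genes tested, 4 rose and 2 fell, beside 25.9% and 25.1% of all genes tested. Spp1, which encodes osteopontin, rose from 1568 ± 56.4 to 2017 ± 45.0 CPM (SD, n = 3 each), a log2 fold change of 0.36 (adjusted p = 1.1e-11). Fbln5, an elastic fibre protein with an RGD peptide, fell from 140 ± 6.20 to 103 ± 3.94 CPM, a log2 fold change of -0.44 (adjusted p = 8.5e-11). Of the 5 genes of other laminin receptors and the tetraspanin Cd151, 2 rose and 2 fell, beside the 50.9% of all genes tested that were called. Cd151, which binds the laminin-binding integrins in the membrane, had 706, 729 and 692 CPM in Control and 980.4, 976 and 942 CPM in STZ. Its groups stood well apart, with a log2 fold change of 0.45 (SE 0.04, adjusted p = 2.9e-14). Dag1, the precursor of dystroglycan, which binds laminin outside the integrin family, went the other way, from 1814 ± 46.9 to 1488 ± 31.6 CPM and a log2 fold change of -0.29 (adjusted p = 3.1e-09).

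Inside the cell, 9 of 17 tested genes of the focal adhesion rose, 1 fell and 7 were not called. The share called in either direction was near the 50.9% of all genes tested, of which 25.9% rose and 25.1% fell. Src, the tyrosine kinase, rose from 126 ± 7.36 to 197 ± 8.91 CPM, a log2 fold change of 0.65 (adjusted p = 6.4e-16). Ptk2, which encodes focal adhesion kinase, rose from 267 ± 3.06 to 374 ± 3.20 CPM, a log2 fold change of 0.49 (adjusted p = 8.2e-15). Both hemidesmosome genes tested rose, beside 25.9% of all genes tested, and by less than Itgb4 did. Dst had a log2 fold change of 0.24 (edgeR's adjusted p = 1.5e-06). Plec, whose product ties Itgb4 to keratin, had 0.15 (edgeR's adjusted p = 8.5e-04). The third, Col17a1, had under 10 reads in every sample. Of 4 genes whose products hold integrins inactive, 1 rose and 3 were not called, beside the 50.9% of all genes tested that were called. Flna rose by a log2 fold change of 0.16 (edgeR's adjusted p = 2.1e-04). Itgb1bp1, which binds the tail of Itgb1, was not called at -0.07 (edgeR's adjusted p = 0.35).

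**Figure D5:**
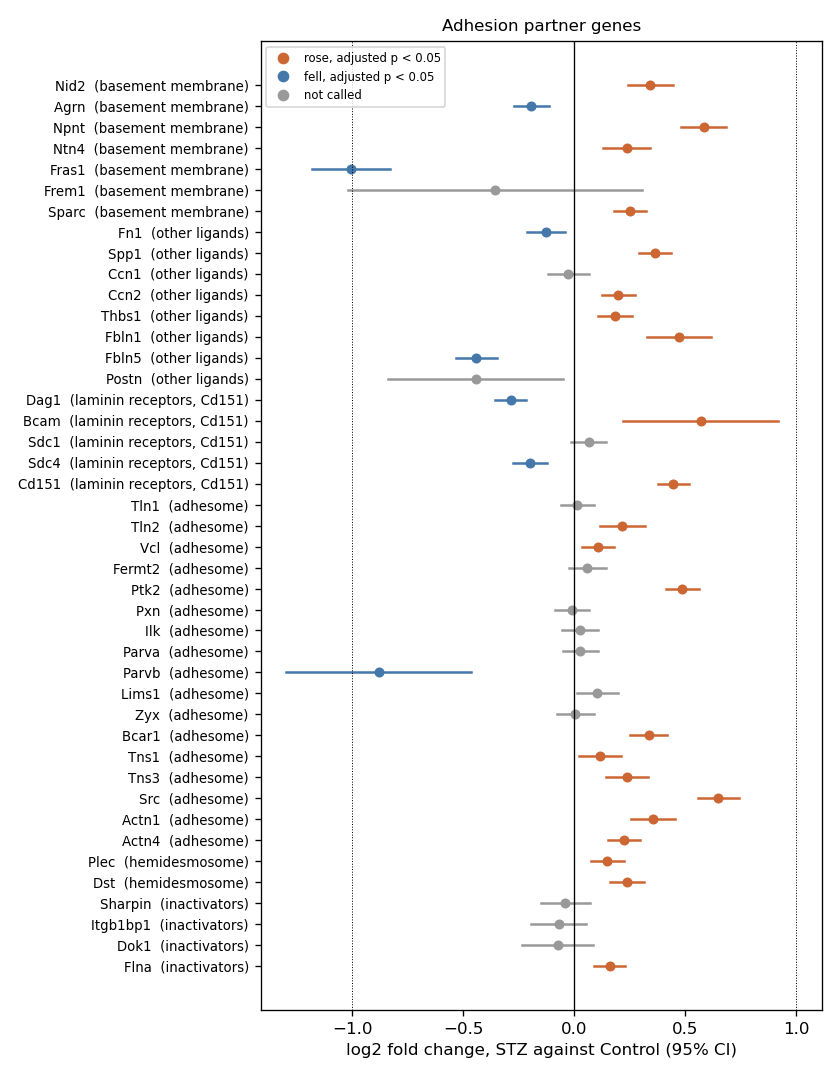
Log2 fold change (x axis, STZ against Control) of the 43 adhesion partner genes tested, grouped by list, with points for edgeR's estimate, bars for its 95% confidence interval and dotted lines at 1 in either direction. Src (0.65) and Npnt (0.58) lie far to the right, and Fras1 (-1.01) and Parvb (-0.88) farthest to the left.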

How the data were processed

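Total RNA of 3 Control and 3 STZ samples was made into libraries with a TruSeq stranded mRNA kit and read as 100-bp single ends. Mapping by the authors used STAR 2.7.10a and the rat build Rnor6, and they deposited raw counts of uniquely mapped reads per gene from featureCounts. The annotation release and strand setting are not given in the sources used here. The 6 columns were assigned by their labels, and each of the 18930 rows was kept as deposited.

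Counts were filtered (filterByExpr), scaled (TMM) and tested with edgeR 4.0.16 in R 4.3.3 (quasi-likelihood, Benjamini-Hochberg adjustment over 11870 genes). A gene rose or fell at an adjusted p-value under 0.05; the study's added threshold is an absolute log2 fold change over 1. Standard errors are the absolute log2 fold change over the square root of F, and intervals are 95%. The steps were tested on simulated data. Named in full are members past the adjusted p-value with an absolute log2 fold change of at least 0.3, the member with most reads in each role group, and the 2 genes of smallest p per partner list; Lamb1, Itga5, Itga2b, Itgb5, Itgb8 and Parvb were added after their values were seen. The members and lists were chosen with earlier results of these data known. The 14 alternatives were 2 filters, 3 scalings, DESeq2 1.42.0, limma-voom (limma 3.58.1), blocking on replicate number, and leaving out each sample. No pair within a group looked like 1 library deposited again (counts varied by 1.85 times sampling noise or more, as chi-square over its degrees of freedom). The members named matched RefSeq symbols, and 25 had a promoter there. The motifs were chosen after the data were seen. The values of 1 member are not reported here, though it enters the counts and medians.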

Additional observations from a re-analysis of the deposited data

How the results depend on the processing

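The number of members called at an adjusted p under 0.05 was 16 as reported, 13 to 16 under the 8 alternatives that kept all samples and 13 to 15 with a sample left out. The number past both thresholds was 3 under all 14 alternatives. The number of partner genes called, 29, was 28 to 31 and 28 to 30. The median log2 fold change of the tested members, 0.32, was 0.22 to 0.32 with all samples. The 0.22 came from the fit without a filter, which took in all 34 members. The lowest of the other fits with all samples was 0.29, under scaling by library size only. With a sample left out the median was 0.15 to 0.31, where up to 23 members passed the filter. Of 280 refits of 20 single members, 255 kept direction and call, 20 lost the call (Itga10, Itga7, Lamb1 and Lamb2) and 5 changed sign, all in genes that were not called. Itgae was -0.0058 under scaling by library size only and -0.15 to 0.20 with a sample left out, and Itga2b -0.029 to 0.277 likewise. All 168 refits of the 12 named partner genes kept direction and call. Over all genes tested the median log2 fold change stayed between -0.0391 and -0.00194 under all 14 alternatives. Control and STZ share replicate numbers. What set same-numbered samples apart from their groups correlated at 0.0464, -0.0348 and 0.0745 across 11842 genes. Counting noise lowers such correlations, so they cannot exclude that same-numbered samples were handled together. In the fit with the replicate block, 16 members and 31 partner genes were called, 3 members passed both thresholds, and the median was 0.32. Over all genes tested, 3139 rose and 3060 fell in that fit, against 3070 and 2976 without the block. Depth limits the 13 members with at most 16 reads in a sample.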
